A study of Mus musculus with 6 samples.

Results

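Kcnj10, Kcnj16, Aqp4, Gja1 and Gjb6 encode the channels through which astrocytes pass potassium ions and water and connect to one another. They were the 5 rows taken by gene symbol from the 54532 genes of a hippocampal RNA-seq table, and all 5 were found once. The table held 3 wild-type (WT) and 3 transgenic (TG) mice, numbered here as WT1, WT2, WT3 and TG1, TG2, TG3. The TG mice were CRISPR/Cas9 knock-in animals on the C57BL/6N background with the coding changes G82R and L85P in Slc1a2, the gene of the glutamate transporter GLT-1. The WT mice were littermates. The change was in the germ line and no promoter or Cre limited it to astrocytes. The sources used here did not give the age or sex of the sequenced mice, or whether the TG animals carried 1 or 2 copies of the changed allele. The labels number the mice within each genotype and name no treatment besides genotype, and nothing else in them states how the tissue of each library was taken. The limma p-values therefore set the difference between genotypes against the spread within genotypes among these 6 libraries. The fit moderates that spread with a trend over all genes tested.

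An active neuron releases potassium ions and glutamate, and neighbouring astrocytes clear both. Inward rectifier channels set the astrocyte membrane close to the potassium equilibrium potential and let potassium enter where its concentration is high. Connexins couple astrocytes into a network, in which potassium and small metabolites can spread, and aquaporin-4 lets water follow at the endfeet, the processes that wrap blood vessels. GLT-1 sits in the same membranes. Its transport is driven by the movement of sodium, hydrogen and potassium ions, and also depends on the membrane potential that the inward rectifiers help to hold. The comparison addressed whether the RNA of these channels differed in the hippocampus of mice with the altered transporter.

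None of the 5 channel genes differed detectably between TG and WT mice. Their FPKM (reads scaled to gene length and to the size of the library) overlapped between the groups for all 5 genes, and the estimated changes lay between -5.26% for Gjb6 and 5.97% for Kcnj10. The 95% confidence intervals together reached from -21.0% for Kcnj16 to 23.7% for Aqp4. Of the 20952 genes tested across the table, 12.1% had groups that did not overlap and 5.91% had an unadjusted p under 0.05 in limma, and none of the 5 channel genes was among either. An adjusted p under 0.05 in limma was reached by 0.00955% of the genes tested, that is by Snord7 and Mir7655. They are named here because they were the only ones. Both are short RNA genes, and Snord7 had at most 12 reads in any library. Mir7655 had 0 reads in each WT library and 1, 2 and 2 reads in TG1, TG2 and TG3. It passed the filter of 0.1 FPKM on average only through the TG mice.

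The sequences of the 5 genes were compared with those of their relatives, since a count per gene can split reads that match several genes. Kcnj10 (ENSMUSG00000044708) lies at chr1:172341210-172374085 and Kcnj16 (ENSMUSG00000051497) at chr11:110968033-111027968, both on the plus strand in GRCm38. Gja1 (ENSMUSG00000050953) lies at chr10:56377330-56402513 on the plus strand and Gjb6 (ENSMUSG00000040055) at chr14:57123303-57133611 on the minus strand. In GENCODE M21 the whole coding sequence sat in 1 exon for Kcnj10, Kcnj16, Gja1 and Gjb6, and was spread over 5 exons for Aqp4. It was 1137 bases long in Kcnj10, 1257 in Kcnj16, 969 in Aqp4, 1146 in Gja1 and 783 in Gjb6. The exon sequence outside this coding sequence made up between 68.1% of the deposited gene length in Kcnj16 and 88.8% in Gja1.

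The families share short runs of identical coding sequence. The longest identical run that Kcnj16 and Gjb6 each share with a relative is shown. A run ends at the first base that differs, and the sequences can match again beyond it. Gjb6 and Gjb2 match again soon after the end of their run. Capitals mark the shared run, with 15 bases on each side in lower case, read 5′ to 3′ on the strand of the gene, with GENCODE M21 coding positions in GRCm38. The first pair is Kcnj16 at chr11:111025090-111025134 and Kcnj12 at chr11:61069796-61069840, both on the plus strand, with 15 shared bases.
Kcnj16: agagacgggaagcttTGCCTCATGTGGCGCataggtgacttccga
Kcnj12: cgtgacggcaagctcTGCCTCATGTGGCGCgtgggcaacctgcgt
The other pair is Gjb6 at chr14:57124555-57124604 and its neighbour Gjb2 at chr14:57100502-57100551, both on the minus strand, with 20 shared bases.
Gjb6: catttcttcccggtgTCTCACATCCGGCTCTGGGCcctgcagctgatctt
Gjb2: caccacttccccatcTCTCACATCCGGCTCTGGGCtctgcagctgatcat

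No identical run in the coding sequence of a channel gene was longer than 26 bases in a relative. By this measure, which allows no mismatch, the members of a pair were no closer to each other than to these relatives. Kcnj10 and Kcnj16 shared 13 bases, and Gja1 and Gjb6 shared 13. Over whole transcripts, the share of 50-base stretches found in transcripts of other genes too was 1.62% for Kcnj10, 1.30% for Kcnj16, 0.115% for Gja1 and 0% for Aqp4 and Gjb6. Kcnj15 was the one relative that shared such a stretch, with Kcnj16. The longest coding run of that pair was 10 bases, so the stretch did not lie in the coding sequence of both, and Kcnj15 was at or below 0.0257 FPKM in all 6 libraries. The gene span of Aqp4 in the table differs from that of GENCODE M21, where it overlaps AC133525.2 on the opposite strand. The strand setting of the counting was not stated, so reads of that overlap cannot be told apart. The spans of the other 4 genes were the same in both and overlapped no other gene.

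The reads on genes ranged from 16081281 to 18751057 per library, and each of the 5 genes had at least 357 reads in each library. Counting noise was not estimated separately. Gja1 had the most reads, between 3289 and 4109 in a library, and Kcnj16 the fewest, between 357 and 486. Per length, the mean over the 6 libraries was 25.7 FPKM for Kcnj10, 23.8 for Gjb6, 20.8 for Gja1, 20.2 for Aqp4 and 6.15 for Kcnj16. Gjb6 was above Gja1 and Aqp4 was above Kcnj16 in 6 of 6 libraries, whereas Kcnj10 was above Gjb6 in 5 and Gja1 above Aqp4 in 4 libraries, so the order of those neighbours was within their spread. The first 4 genes were among the most abundant 12.1% of the genes tested, and Kcnj16 was at 32.8%. The order depended on the gene length that was used. The deposited length of Gja1, 10257 bases, is the union of the exons of 8 annotated transcripts, and its longest coding transcript has 3182 bases. With the length of the longest coding transcript the mean of Gja1 would be 67.2 FPKM and that of Gjb6 30.2 FPKM, which would put Gja1 first, while differences between the groups would stay as they are.

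**Figure D1:**
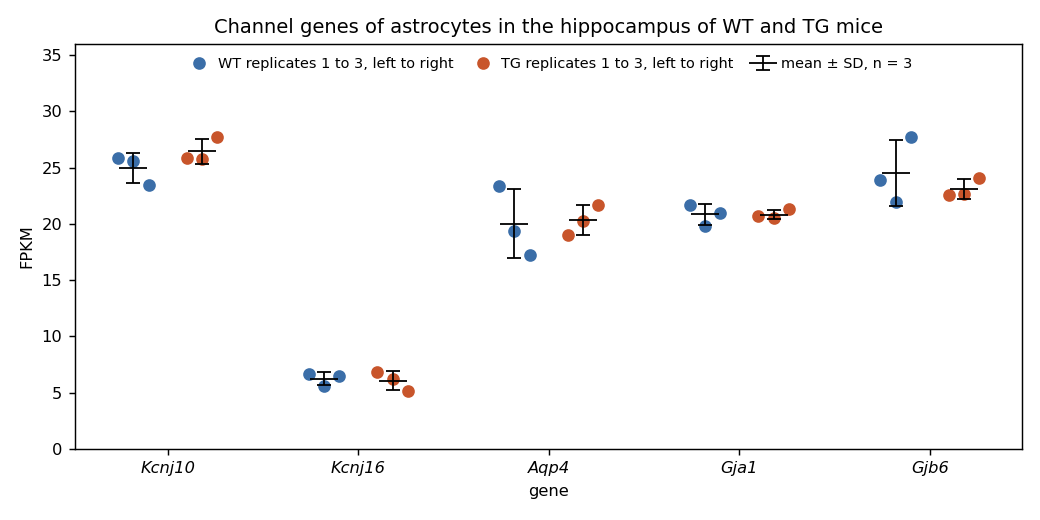
FPKM (linear axis) of the 5 channel genes in each WT (blue) and TG (orange) library, with black bars for the mean ± SD of 3 libraries. The groups overlap for all 5 genes, Kcnj16 lies between 5.15 and 6.79 FPKM and the other 4 lie between 17.3 and 27.7 FPKM.

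Kcnj10 encodes Kir4.1, the main inward rectifier of astrocytes. It was at 25.9, 25.6 and 23.5 FPKM in WT1 to WT3 and at 25.9, 25.7 and 27.7 FPKM in TG1 to TG3. TG3 was the highest and WT3 the lowest library, and the other 4 lay close together. The means were 25.0 ± 1.31 FPKM (SD, n = 3) in WT mice and 26.5 ± 1.11 FPKM (SD, n = 3) in TG mice. The log2 fold change was 0.08 with a standard error of 0.0698 and a limma adjusted p of 0.789. The 95% confidence interval reached from -5.40% to 18.7%. The two-sided exact permutation test of the 6 values gave p = 0.2, where 3 against 3 libraries allow no p below 0.1.

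Kcnj16 encodes Kir5.1, which carries little current by itself and joins Kir4.1 in mixed channels that respond more strongly to pH. It was at 6.68, 5.62 and 6.43 FPKM in WT mice and at 6.79, 6.22 and 5.15 FPKM in TG mice. The highest and the lowest value were both from TG mice, TG1 and TG3. The log2 fold change was -0.05 with a standard error of 0.124 (limma adjusted p = 0.933), and the interval reached from -21.0% to 18.3%. Since the mixed channel needs both proteins, the ratio of the FPKM of Kcnj16 to that of Kcnj10 was computed in each library. It was 0.258, 0.220 and 0.274 in WT mice and 0.262, 0.242 and 0.186 in TG mice. TG3 had the lowest ratio, with the lowest Kcnj16 and the highest Kcnj10 of the 6 libraries, and the ratios of the other 5 libraries overlapped between the genotypes.

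Aqp4 (ENSMUSG00000024411, chr18:15389394-15403684 on the minus strand in GRCm38) encodes aquaporin-4, the water channel of the endfeet. It was at 23.3, 19.4 and 17.3 FPKM in WT mice and at 19.0, 20.3 and 21.7 FPKM in TG mice. All 3 TG libraries lay between the highest and the lowest WT library. The means were 20.0 ± 3.07 FPKM (SD, n = 3) in WT mice and 20.3 ± 1.35 FPKM (SD, n = 3) in TG mice, with a log2 fold change of 0.03, a standard error of 0.116 and a limma adjusted p of 0.950. The WT libraries were spread more widely than for the other channel genes, with a coefficient of variation of 15.4%, so the interval was wide and reached from -15.3% to 23.7%. The ratio of Aqp4 to Kcnj10, which sit together at the endfoot, was between 0.736 and 0.902 in WT mice and between 0.735 and 0.788 in TG mice. WT1 alone was above 0.8.

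Gja1 encodes connexin 43, the most widespread connexin of astrocytes. It was at 21.7, 19.9 and 21.0 FPKM in WT mice and at 20.7, 20.5 and 21.3 FPKM in TG mice. The 6 libraries lay within a factor of 1.09, and all TG values lay inside the WT range. The means were 20.84 ± 0.918 FPKM in WT mice and 20.83 ± 0.439 FPKM in TG mice (SD, n = 3 each). The log2 fold change was 0.00045 with a standard error of 0.0642 (limma adjusted p = 0.999). Gja1 had the narrowest interval of the 5 genes, from -9.89% to 11.0%.

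Gjb6 encodes connexin 30, the second astrocyte connexin, which appears as astrocytes mature. It was at 23.9, 21.9 and 27.7 FPKM in WT mice and at 22.6, 22.7 and 24.1 FPKM in TG mice. WT3 was the highest library and WT2 the lowest, with the TG libraries between them. The log2 fold change was -0.08 with a standard error of 0.0945 (limma adjusted p = 0.843), and the interval reached from -18.8% to 10.5%. The ratio of Gjb6 to Gja1 was 1.10, 1.10 and 1.32 in WT mice and 1.09, 1.11 and 1.13 in TG mice. WT3 stood above the other 5 libraries, which lay between 1.09 and 1.13. The SD of this ratio was 0.124 among WT libraries and 0.0193 among TG libraries.

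**Figure D2:**
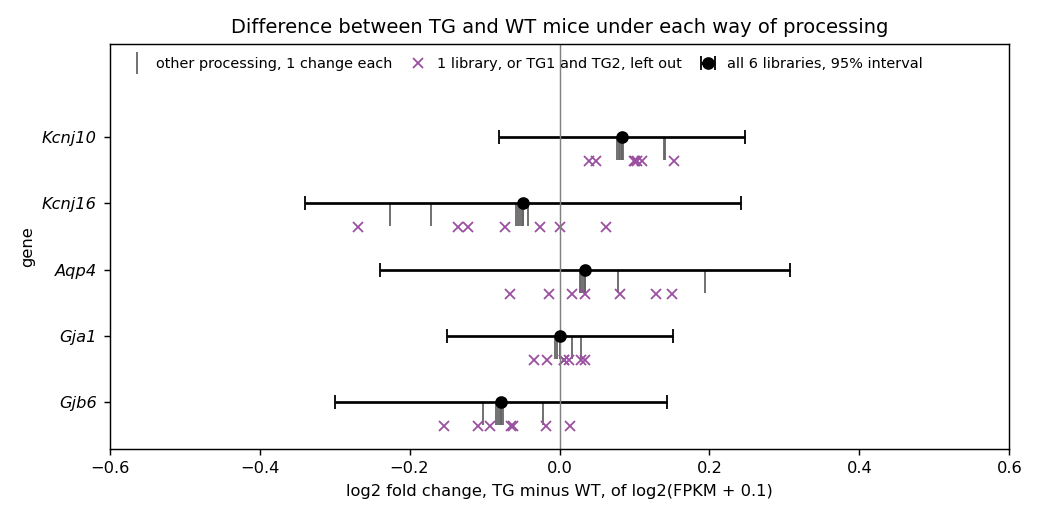
Log2 fold change between TG and WT mice (horizontal axis, on log2(FPKM + 0.1)) of the 5 channel genes, with black dots and bars for limma on all 6 libraries and its 95% confidence interval. Grey ticks are single changes of the processing and purple crosses are fits with 1 library, or TG1 and TG2, left out. Every black interval holds 0, and all ticks and crosses lie between -0.27 and 0.19.

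The scatter within the groups differed between the genes. The within-group SD of log2(FPKM + 0.1) was 0.0498 for Gja1, 0.0686 for Kcnj10, 0.126 for Gjb6, 0.168 for Aqp4 and 0.169 for Kcnj16. The median over the 13325 genes averaging 1 FPKM or more was 0.140, so Gja1, Kcnj10 and Gjb6 lay below this median and Aqp4 and Kcnj16 above it. In every gene the size of the log2 fold change was below 2 of its standard errors. The median log2 fold change of all genes tested was -0.002, close to 0. TG1 and TG2 had high levels of choroid plexus genes, described further on, and the fit without these 2 libraries gave log2 fold changes between -0.27 for Kcnj16 and 0.15 for Kcnj10, with no adjusted p below 0.977. In that fit the single TG library was assumed to vary like the WT libraries.

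**Figure D3:**
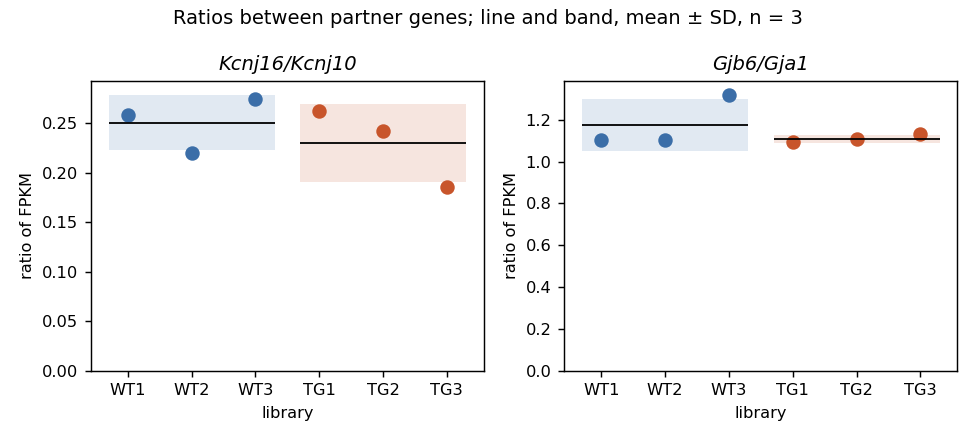
Ratio of FPKM of Kcnj16 to Kcnj10 (left) and of Gjb6 to Gja1 (right) in each library (blue, WT; orange, TG), with lines and bands for the mean ± SD of 3 libraries and axes that start at 0. TG3 has the lowest ratio on the left, 0.186, and WT3 the highest on the right, 1.32.

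The wider inward rectifier family held 15 Kcnj genes, of which 13 passed the filter of 0.1 FPKM on average. The median log2 fold change over these 13 was -0.02 and took either sign when 1 library was left out, from -0.07 without TG1 to 0.06 without WT1, and none had an adjusted p under 0.05. An unadjusted p under 0.05 with a higher level in TG mice was found for 2 of the 13, where 3.13% of all genes tested were higher and 2.78% lower by that measure. Kcnj11 encodes Kir6.2, the pore of ATP-sensitive potassium channels. It was at 9.55, 9.88 and 9.78 FPKM in WT mice and at 13.3, 11.4 and 12.5 FPKM in TG mice, with a log2 fold change of 0.34, a standard error of 0.0783, an unadjusted p of 0.00298 and an adjusted p of 0.786 in limma. All 3 TG libraries were above all WT libraries, which makes Kcnj11 the clearest difference in the family before adjustment, and it did not hold after adjustment over all genes.

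The other gene was Kcnj13, which encodes Kir7.1, a channel of transporting epithelia such as the choroid plexus. It was at 0.511, 0.244 and 0.294 FPKM in WT mice and at 4.98, 13.0 and 0.610 FPKM in TG mice, on 5 to 12 reads in WT mice and 100, 295 and 14 reads in TG mice. The high values were those of TG1 and TG2, while TG3 was near the WT mice. The log2 fold change was 3.05 with a standard error of 0.946, an unadjusted p of 0.0138 and a limma adjusted p of 0.786. The summed FPKM of 12 choroid plexus markers was 82.2, 57.5 and 73.2 in WT mice and 1211, 3832 and 65.9 in TG mice. The marker sum was thus high in the same 2 libraries, and its part in the Kcnj13 value was not tested. Of the most abundant relatives, Kcnj4, Kcnj9 and Kcnj3, which encode neuronal inward rectifiers, had log2 fold changes of -0.02, 0.14 and -0.09 with limma adjusted p-values of 0.964, 0.789 and 0.837.

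Of 12 aquaporin genes, 4 passed the filter and the other 8 had mean levels below 0.1 FPKM. Aqp4 had the highest level of the family in each of the 6 libraries. Aqp11, an intracellular aquaporin, was at 3.64, 3.68 and 3.86 FPKM in WT mice and at 3.59, 3.35 and 3.28 FPKM in TG mice, so that the groups lay apart by a narrow gap with a log2 fold change of -0.13 and a limma adjusted p of 0.789. Aqp1, the water channel of the choroid plexus, was at 0.391, 0.424 and 0.102 FPKM in WT mice and at 4.76, 16.0 and 0.316 FPKM in TG mice. The log2 fold change was 3.10 (limma unadjusted p = 0.0359, adjusted p = 0.786), with the high values again in TG1 and TG2. The part of the choroid plexus markers in this value was not tested. Aqp9, an aquaglyceroporin, was at 0.153 to 0.477 FPKM over the 6 libraries, with overlapping groups.

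Of 23 connexin and pannexin genes, 13 passed the filter and none had an unadjusted p under 0.05 in either direction. Their median log2 fold change was 0.00. The sign of this median was not stable, since it was -0.15 without WT2, -0.11 without TG3 and -0.09 without WT1 or WT3. Gjc3 and Gjb1 encode connexins 29 and 32 of oligodendrocytes, the cells whose myelin lies next to the astrocyte network. Gjc3 was at 11.5, 11.0 and 9.64 FPKM in WT mice and at 6.86, 9.18 and 9.67 FPKM in TG mice, with a log2 fold change of -0.33, an unadjusted p of 0.0504 and an adjusted p of 0.786 in limma. Gjb1 had a log2 fold change of -0.30 with a limma adjusted p of 0.789. TG1 was the lowest library for both genes. All 10 myelin genes of a fixed list also had negative log2 fold changes, with a median of -0.30 that was -0.12 without TG1, and their summed FPKM was lowest in TG1, at 518 against 667 to 835 in the other libraries. The part of this in the connexin values was not tested. Panx2, the neuronal pannexin and the most abundant gene of the family, had a log2 fold change of 0.15 with a limma adjusted p of 0.789.

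**Figure D4:**
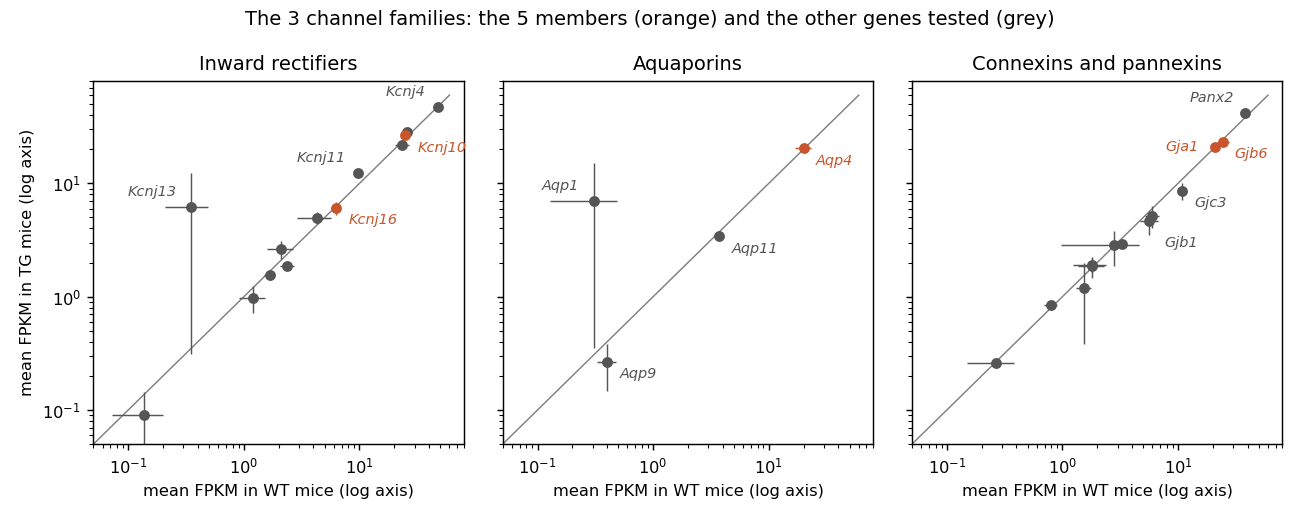
Mean FPKM in TG mice (vertical) against WT mice (horizontal), both on log axes, for the tested genes of the 3 families, with the 5 channel genes in orange and SD bars over 3 libraries. Lower bars are held at 95% of the mean where the SD is larger. The line marks equal levels. The 5 channel genes lie on it, while Kcnj13 and Aqp1 lie far above it with SD bars in TG mice as large as their means.

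The proteins that hold Aqp4 and Kir4.1 at the endfoot were described with a list of 16 genes, all of which passed the filter. Their median log2 fold change was 0.06, 11 were positive and 5 negative, and none had an adjusted p under 0.05. The median was 0.01 without WT3, 0.11 without WT2, 0.12 without TG2 and 0.04 without TG1. An unadjusted p under 0.05 with a higher level in TG mice was found for 3 of the 16 and a lower level for none. Over all genes tested, 3.13% were higher and 2.78% lower by that measure. Dag1, which encodes dystroglycan, was at 19.2, 17.3 and 15.1 FPKM in WT mice and at 21.5, 20.0 and 19.5 FPKM in TG mice, with a log2 fold change of 0.25 and a limma unadjusted p of 0.0394. Utrn, which encodes utrophin, and Sntb2, which encodes beta-2-syntrophin, had log2 fold changes of 0.35 and 0.39 with limma unadjusted p-values of 0.0384 and 0.0491. The groups lay apart for all 3, for Sntb2 only narrowly, with WT3 the lowest library of each. Each had an adjusted p of 0.786. Of all genes tested, 12.1% had groups that did not overlap. Mlc1, an astrocyte membrane protein of the perivascular processes and the most abundant gene of the list, was at 65.0, 61.8 and 70.3 FPKM in WT mice and at 61.0, 64.3 and 61.9 FPKM in TG mice (log2 fold change -0.07, limma adjusted p = 0.808).

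Of 10 other genes of astrocyte potassium and volume transport, 1 had an unadjusted p under 0.05, against 5.91% of all genes tested. None had an adjusted p under 0.05, and the median log2 fold change was 0.08. Trpv4, a cation channel that responds to swelling, was at 0.584, 0.532 and 0.577 FPKM in WT mice and at 2.67, 5.78 and 0.611 FPKM in TG mice (log2 fold change 1.77, limma unadjusted p = 0.0334, adjusted p = 0.786). Trpv4 is also expressed in choroid plexus epithelium, and its high libraries were TG1 and TG2, as for Kcnj13 and Aqp1, where the part of the choroid plexus markers was likewise not tested.

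The channel genes were set against other genes of astrocytes. Slc1a2 itself was at 202, 200 and 177 FPKM in WT mice and at 222, 207 and 217 FPKM in TG mice. Its groups lay apart with a log2 fold change of 0.16 and a limma adjusted p of 0.789. The knock-in exchanges bases within an exon, so a gene total neither checks the genotype labels nor measures the protein. The study's Western blots, a measure of protein, showed GLT-1 nearly lost from the hippocampus of TG mice. The 12 genes of an astrocyte reference list had a median log2 fold change of 0.00, with 6 positive, 6 negative and none under an unadjusted p of 0.05, and the median lay between -0.05 without WT1 and 0.04 without WT3 when 1 library was left out. Glul, which encodes glutamine synthetase and was the most abundant of them, had a log2 fold change of -0.01. The tissue was bulk hippocampus, so fewer cells of a type and less RNA per cell cannot be told apart, and neither was tested. No channel gene and no gene of the reference list had an unadjusted p under 0.05 in limma.

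Reactive astrocyte genes were described with a list of 8. Gfap, the intermediate filament of astrocytes and the most abundant of them, was at 91.1, 77.7 and 79.9 FPKM in WT mice and at 80.3, 97.4 and 97.1 FPKM in TG mice, with a log2 fold change of 0.14 and a limma adjusted p of 0.789. Steap4, a metalloreductase, was the one gene of the list with an unadjusted p under 0.05, at 0.446, 0.0785 and 0.0508 FPKM in WT mice and at 0.541, 1.08 and 0.298 FPKM in TG mice. Its log2 fold change was 1.45 (limma unadjusted p = 0.0457, adjusted p = 0.786) and its groups overlapped. Over all genes tested, 5.91% had an unadjusted p under 0.05. The median over the 8 genes was 0.13, and no adjusted p was under 0.05. The median was 0.26 without WT1 and 0.08 without WT2.

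Markers of other cell types were examined in the same way. All 12 choroid plexus markers had positive log2 fold changes, with a median of 2.72 (1.60 without TG2). An unadjusted p under 0.05 was reached by 6 of them, where 3.13% of all genes tested were higher by that measure. Among the 6, Tmem72 and Steap1 averaged 0.0381 and 0.0929 FPKM in WT mice. These 2 passed the filter of 0.1 FPKM only through the TG mice, where they were high. Ttr, the most abundant of them, was at 73.0, 49.8 and 66.6 FPKM in WT mice and at 1168, 3705 and 57.7 FPKM in TG mice. The median over the 5 channel genes, relative to the WT mean, was -0.01, 0.00 and 0.03 on the log2 scale in TG1, TG2 and TG3. It was 0.06, -0.07 and 0.01 in WT1, WT2 and WT3. With a score of the choroid plexus markers as a covariate, the log2 fold change was -0.23 for Kcnj16 and 0.14 for Kcnj10, against -0.05 and 0.08 without it. It was 0.08 for Aqp4, 0.03 for Gja1 and -0.02 for Gjb6, against 0.03, 0.00 and -0.08. The part of the choroid plexus in the channel values was not tested. Among 10 myelin genes Opalin had an unadjusted p under 0.05, with a log2 fold change of -0.77. Among 8 oligodendrocyte precursor genes, Gpr17 had one with a log2 fold change of 0.42 and Olig2 with one of -0.17. Of these 8 genes 2 were positive and 6 negative, with a median of -0.09. Among 8 ependymal genes, Ccdc153 and Tmem212 had one with log2 fold changes of -0.68 and -0.75, while 5 of the 8 were positive and the median was 0.14, or -0.24 without TG2. Flt1 of 9 endothelial and pericyte genes and Csf1r of 7 microglial genes had one with log2 fold changes of 0.24 and 0.19, and none of 8 meningeal or 7 neuronal genes did. None of these genes had an adjusted p under 0.05, and 5.91% of all genes tested had an unadjusted p under 0.05.

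**Figure D5:**
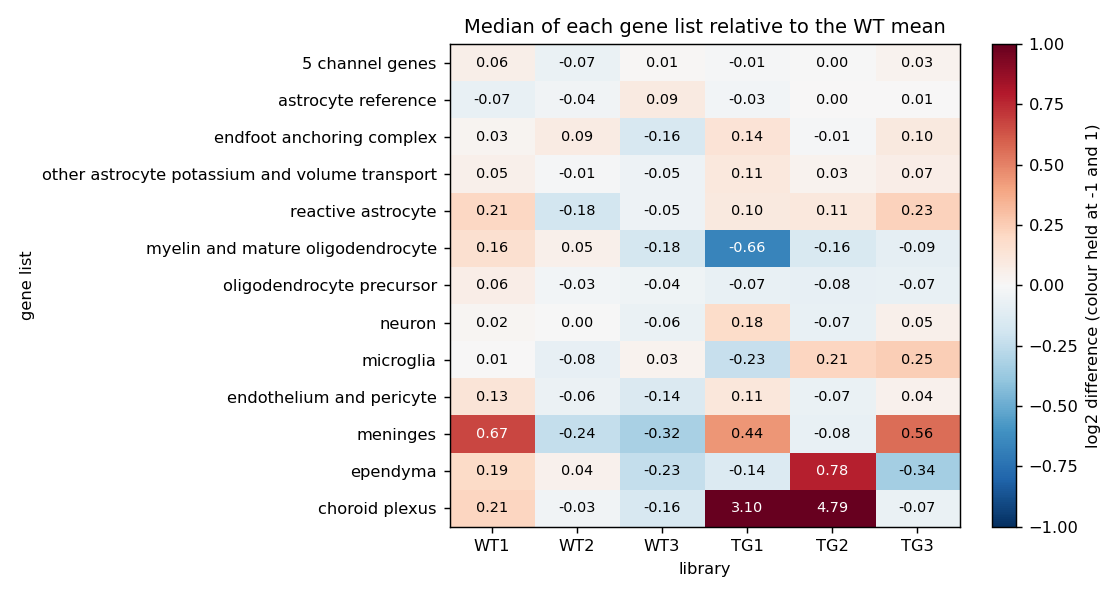
Median log2 difference from the WT mean (printed in each cell, colour held at -1 and 1) of each gene list (rows) in each library (columns). The median of the 5 channel genes stays between -0.07 and 0.06, and single genes lie further out. The median of the choroid plexus list reaches 3.10 in TG1 and 4.79 in TG2 and that of the myelin list -0.66 in TG1.

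The 5 channel genes did not vary together as one set over the 6 libraries. Pearson's r of log2(FPKM + 0.1), given as a description over 6 points that share the libraries and their depth, was 0.73 between Kcnj10 and Aqp4, 0.52 between Gja1 and Gjb6 and -0.55 between Kcnj10 and Kcnj16. Over 11916 protein-coding genes averaging 1 FPKM or more, the genes most like Kcnj10 were Afap1 (r = 0.992), Txnrd1 (r = 0.989) and Rhobtb2 (r = 0.986). Those most like Kcnj16 were Amz1, Pde6d and Polr2b, with r of 0.987 to 0.988, and those most like Aqp4 were Rab2b, Shc1 and Nr1d1, with r of 0.977 to 0.988. Those most like Gja1 were Dpp10, Spa17 and Cav1, with r of 0.962 to 0.973, and those most like Gjb6 were Fam49b, Tekt5 and Pdik1l, with r of 0.995 to 0.996. With 6 libraries such values are common. An r over 0.9 was reached by 170 genes for Kcnj10, 41 for Kcnj16, 60 for Aqp4, 53 for Gja1 and 509 for Gjb6, and no other channel gene of the 5 was among the 3 genes most like any of them.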

How the data were processed

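Hippocampal RNA of 3 WT and 3 TG mice was sequenced. The study's methods name Trizol and a NEBNext kit, the labels an RNeasy and a SMARTER kit. The authors counted reads per gene with HTSeq and deposited FPKM computed from count and gene length; the aligner was not given in the sources used here, and the labels name the build GRCm38 (mm10). Coordinates and gene lengths come from other columns of the deposited table. FPKM times length gave whole reads for 100% of values (tolerance 0.05 reads); 3 reads on a gene of 1 kb give 0.160 to 0.190 FPKM, a limit that covers counting error only.

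Genes averaging 0.1 FPKM or more (20952 of 54532) were tested on log2(FPKM + 0.1) with limma 3.58.1 (lmFit, eBayes with trend; R 4.3.3), without covariates, with Benjamini-Hochberg adjustment over all of them and a threshold of 0.05. The pseudocount understates changes of low genes. Recovered reads entered limma-voom only as an alternative. Of the gene IDs, 54409 were found in GENCODE M21. Sequences were read from its transcripts. Replicate numbers were not treated as pairs in the main fit. Over all genes tested, the within-group deviations of same-numbered libraries correlated at 0.00314 to 0.0434. Those of the other WT and TG libraries correlated at -0.0274 to 0.0159. Values this small cannot tell whether the numbers pair the mice. Named genes were the 5 channel genes, Slc1a2, in each list the most abundant gene, the gene with the smallest p and those with an unadjusted p under 0.05, the 4 most abundant relatives in each family, and the 3 genes most like each channel gene; some of these and some sequences are not reported here. The members, lists and rule were chosen with earlier results of these data known. Figures were drawn with matplotlib 3.10.9 in Python 3.11.15.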

Additional observations from a re-analysis of the deposited data

How the results depend on the processing

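The log2 fold changes of the 5 channel genes were recomputed under 19 alternative settings, which gave 95 values. None of the 5 genes had an unadjusted or adjusted p under 0.05 under any of them, and the smallest unadjusted p was 0.138. The direction was the same in 86 values and the opposite in 9, which lay between -0.0664 and 0.0614. Some of these 9 were larger in size than the main estimate, such as -0.0664 against 0.0334 for Aqp4 without WT3. The cause was not tested. Gja1 was at -0.0062 with upper quartile scaling and at -0.0037 relative to the astrocyte reference genes. Leaving out 1 library gave ranges of 0.0398 to 0.110 for Kcnj10, -0.135 to 0.0614 for Kcnj16, -0.0664 to 0.149 for Aqp4, -0.0339 to 0.0289 for Gja1 and -0.154 to 0.0135 for Gjb6. The signs turned for Kcnj16 without WT1 (0.0011) or TG3 (0.061), for Aqp4 without WT3 (-0.066) or TG3 (-0.014), for Gja1 without WT2 (-0.034) or TG3 (-0.016) and for Gjb6 without WT3 (0.013). With the replicate block, Kcnj10 had an adjusted p of 0.818, and none of the 5 calls changed; the count of genes over the whole table at an unadjusted p under 0.05 was 634 higher and 610 lower with the block, against 656 and 582 without it. With the choroid plexus score as a covariate the 656 became 333 and the 582 became 378. Leaving out TG1 and TG2 together and the transcript length were chosen after seeing the data. Without TG1 and TG2, 417 genes were higher. Without TG1 alone, 375 were lower. Adjusted calls over the whole table went from 0 to 11 over the settings, and Snord7 and Mir7655 rest on at most 12 reads. With 3 libraries a group, the precision for each channel gene is that of its interval.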
